A study of Danio rerio with 8 samples.

Results

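The 10 genes described here encode feedback inhibitors of the ERK branch of the MAP kinase pathway: the MAP kinase phosphatases dusp1, dusp2, dusp4, dusp5 and dusp6, the Sprouty genes spry1, spry2 and spry4, and the Spred genes spred1 and spred2a. They were taken by symbol from a deposited table of raw read counts for 31901 genes, in which all 10 were found. RNA sequencing libraries (SMART-Seq2, a method for small RNA inputs) were made from cells sorted by their GFP out of larval zebrafish of the line BAC(pdgfrb:Gal4ff)ncv24;UAS:GFP, in which the pdgfrb promoter drives GFP through the Gal4ff activator. The labels describe these cells as myoseptal and perivascular, so they come from the septa that separate blocks of muscle and from the outside of blood vessels. In 4 libraries the larvae had been lesioned mechanically at the spinal cord 1 day earlier, and in 4 they were unlesioned. All larvae of both groups carried the transgene and were 4 days past fertilization, and trypsin was used to dissociate the tissue before sorting. The labels do not give the number of larvae in a library or say that libraries come from separate animals, so p-values speak only to how these libraries vary, and that variation may be technical.

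When a growth factor such as FGF, EGF or PDGF binds its receptor, Ras and the kinases Raf and MEK pass the signal on to ERK, which enters the nucleus and turns on transcription. Among the first genes it turns on are its own inhibitors. Dual-specificity phosphatases remove the activating phosphates from ERK or from the related kinases JNK and p38, Sprouty proteins act between the receptor and Raf, and Spred proteins bring neurofibromin to the membrane, where it switches Ras off. In zebrafish, dusp6 and spry4 are widely used as readouts of Fgf signalling. Transcripts of dusp1 also respond quickly to stress and handling of cells, as immediate early genes do.

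Library totals ranged from 20811678 to 23754652 counts in lesioned and from 19552807 to 25358885 in unlesioned libraries. Genes with any count numbered 20543 to 21548 in lesioned and 19343 to 20125 in unlesioned libraries, which did not overlap. The part of this difference in the estimates below was not tested. The reporter's own gene pdgfrb had 195 ± 68.5 CPM in lesioned and 213 ± 27.4 CPM in unlesioned libraries (SD, n = 4 each), where CPM is the read count scaled to a common library size with TMM factors. The estimated log2 fold change of lesioned over unlesioned was -0.13 with an SE of 0.27 (edgeR adjusted p = 0.924). The 13 markers of pdgfrb-positive fibroblasts and tendon-like cells summed to between 19243.7 and 34260.3 CPM of the library total in lesioned libraries and to between 15148.2 and 29298.6 in unlesioned libraries. The 10 mural cell markers summed to 4693.9 to 8169.4 CPM in lesioned and 6192.2 to 21860.4 CPM in unlesioned libraries. Libraries numbered 3 and 4 differed from those numbered 1 and 2 in both groups. Their mitochondrial share of counts was 13.8% to 16.8%, against 8.91% to 10.2%, and their epidermal markers summed to 1338.5 to 6253.3 CPM, against 150.9 to 1614.6 CPM, which overlap. Counts of the spike-in entries were 64 to 158 in libraries 3 and 4, against 0 to 3 in libraries 1 and 2. What this difference between the numbers stands for is not given in the labels.

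The members covered a wide range of abundance. To set genes side by side, counts were divided by exon length and scaled to the same sum in each library (TPM). The most abundant were dusp1, a nuclear phosphatase with a broad choice of MAP kinases, with 417 ± 123 TPM in lesioned and 615 ± 179 TPM in unlesioned libraries (SD, n = 4 each here and below), and dusp5, a nuclear phosphatase that prefers ERK, with 463 ± 130 TPM in lesioned and 554 ± 166 TPM in unlesioned libraries. These levels lay above those of 98.3% and 98.2% of the 15759 genes tested. The order of dusp1 and dusp5 was not fixed, since dusp1 was the higher in only 3 of 8 libraries. Both stood above spry4 in all 8 libraries.

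A middle group followed. The level of spry4 was 167 ± 48.3 TPM in lesioned and 155 ± 22.2 TPM in unlesioned libraries. That of dusp2 was 71.5 ± 21.9 TPM in lesioned and 214 ± 92.6 TPM in unlesioned libraries, so spry4 was above dusp2 in 4 of 4 lesioned libraries and in 1 of 4 unlesioned ones. Next came spry2 with 79.4 ± 45.5 TPM in lesioned and 119 ± 89.3 TPM in unlesioned libraries, and dusp6 with 56.2 ± 11.8 TPM in lesioned and 60.3 ± 37.4 TPM in unlesioned libraries. The neighbours spry2 and dusp6 changed places between libraries, with spry2 higher in 5 of 8.

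The low end held dusp4, spred1, spry1 and spred2a. The level of dusp4 was 20.9 ± 6.38 TPM in lesioned and 31.0 ± 11.1 TPM in unlesioned libraries, and that of spred1 15.1 ± 9.99 TPM in lesioned and 14.4 ± 9.69 TPM in unlesioned libraries. Below them were spry1, with 6.44 ± 5.84 TPM in lesioned and 10.7 ± 10.51 TPM in unlesioned libraries, and spred2a, with 7.12 ± 1.85 TPM in lesioned and 3.08 ± 1.93 TPM in unlesioned libraries. Even spred2a, the least abundant on average, was above 42.1% of the genes tested. The order of spry1 and spred2a differed between the groups, and spry1 was the higher in 5 of 8 libraries.

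**Figure D1:**
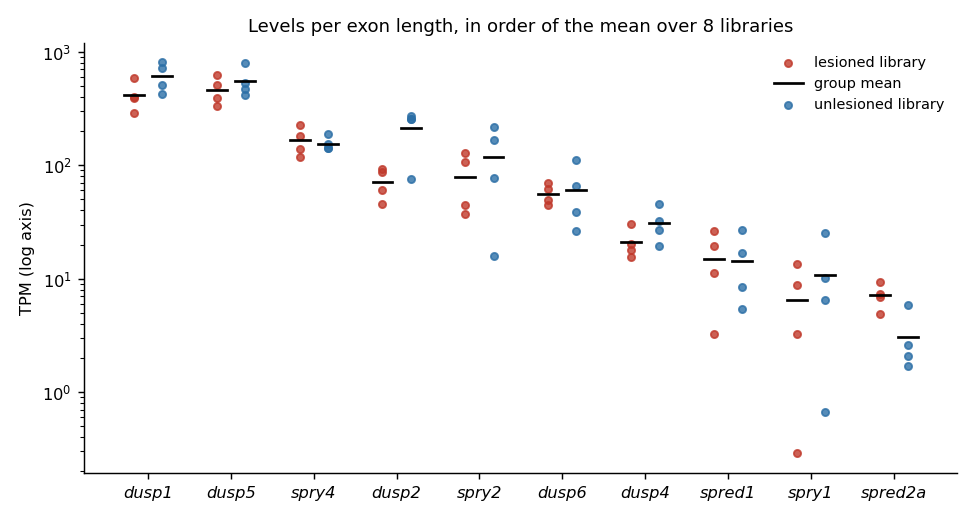
Level of each ERK feedback gene in TPM (log axis) in the 4 lesioned (red, left) and 4 unlesioned libraries (blue, right), with the group mean as a black bar. Genes run from dusp1, with means of 417 TPM in lesioned and 615 TPM in unlesioned libraries, down to spred2a, with 7.12 and 3.08 TPM.

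The question the design poses is how these cells differ 1 day after a spinal lesion. For the ERK feedback genes the estimates were mostly lower in lesioned libraries, led by dusp2 at 3.19-fold lower, with spred2a the exception at 2.191-fold higher, but none of the 10 passed the test over all genes. All 10 passed the filter on low counts. Of them 9 had a negative log2 fold change of lesioned over unlesioned, where 52.3% of all genes tested did, and 1 a positive one, where 47.7% did. With library size alone as scaling spry4 and spred1 turned and 7 members were negative, where 6802 of the 15759 genes tested were. With TMM scaling the members' median was -0.53, where that of all genes was -0.04. In edgeR's quasi-likelihood F-test with Benjamini-Hochberg adjustment over all genes, 0 of 10 were called higher and 0 called lower, where 0.019% and 0.0% of the genes tested were. At an unadjusted p under 0.05 in edgeR, 1 member was lower (background 5.48%), namely dusp2, and 1 was higher (background 6.07%), namely spred2a. The lowest adjusted p was 0.153 in edgeR. The median was -0.29 with the replicate number as a block, -0.37 with limma voom and -0.19 in libraries 3 and 4 alone. In a bulk sample, fewer cells of a type and less RNA per cell cannot be told apart.

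Among the phosphatases, dusp2 differed most. It encodes a nuclear phosphatase that in mammals is induced in activated immune cells, and it lies on chromosome 8 of GRCz11 from 40628926 to 40633991 on the plus strand (ENSDARG00000098108). It had 147, 130.3, 112 and 70.7 CPM in lesioned 1 to 4, against 413, 462, 155 and 437 CPM in unlesioned 1 to 4. With TMM scaling every lesioned library was below every unlesioned one. The level in unlesioned 3 was close to the lesioned range while the other 3 unlesioned libraries lay far above it. The edgeR estimate was -1.67 on the log2 scale with an SE of 0.36 (adjusted p = 0.153). DESeq2 called it lower (adjusted p = 0.00153), as did limma voom with sample quality weights (adjusted p = 0.0443), and over 20 alternative settings its adjusted p ranged from that DESeq2 value to 0.892 in libraries 3 and 4 alone. No other member was called by either tool. DESeq2 called 3.0% of the genes with an adjusted p lower and 3.4% higher, and limma voom with weights called 0.197% lower and 0.19% higher, while limma voom without weights called no member. DESeq2 gave no adjusted p for spry1.

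The separation of the dusp2 groups rested on the scaling. Of the 10 members only dusp2 had all lesioned libraries below all unlesioned ones, where 3.91% of the genes tested did. With library size alone as scaling no member did, where 2.28% of the genes tested did. In TPM, which also lacks TMM scaling, dusp2 had 92.3, 86.9, 61.1 and 45.7 in lesioned 1 to 4, against 255, 270.0, 75.9 and 257 in unlesioned 1 to 4, so unlesioned 3 lay within the lesioned range. The log2 fold change itself was -1.55 with library size alone, a scaling that moved the median of all genes tested to 0.12 and that of the members to -0.37.

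The gene dusp1 (ENSDARG00000100515) lies on chromosome 14 from 15760253 to 15763648 on the minus strand. It had 386, 495, 900.4 and 516 CPM in lesioned 1 to 4, against 685, 612, 1380.5 and 1029 CPM in unlesioned 1 to 4. The groups overlapped, but at each replicate number the lesioned library was the lower one, with log2 differences of -0.996 to -0.306. The edgeR estimate was -0.69 on the log2 scale with an SE of 0.34 (adjusted p = 0.482), and it stayed negative in all 20 alternative settings, between -0.996 and -0.44. The adjusted p over those settings ranged from 0.1565 in edgeR with the replicate number as a block to 0.953 in libraries 3 and 4 alone. Along with dusp2, dusp1 was 1 of 2 members lower at all 4 replicate numbers, as 12.9% of the genes tested were.

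The nuclear phosphatases dusp4 and dusp5 had smaller differences than dusp2. The level of dusp4 (ENSDARG00000044688, chromosome 21, 20113470 to 20120543, minus strand), which acts on ERK and JNK in mammals, was 18.1, 13.0, 30.9 and 15.5 CPM in lesioned 1 to 4, against 17.6, 30.9, 52.1 and 25.7 CPM in unlesioned 1 to 4. That of dusp5 (ENSDARG00000019307, chromosome 22, 29911326 to 29922872, minus strand) was 289, 233, 534.5 and 373 CPM in lesioned 1 to 4, against 406, 381, 759 and 333 CPM in unlesioned 1 to 4. For both the groups overlapped and library 3 was the highest of its group. Each was lower in lesioned at 3 of 4 numbers, with dusp4 nearly equal at number 1 and dusp5 higher at number 4. The log2 differences were -0.705 for dusp4 with an SE of 0.405 (adjusted p = 0.570 by edgeR) and -0.39 for dusp5 with an SE of 0.335 (adjusted p = 0.735 by edgeR).

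The ERK-selective cytoplasmic phosphatase gene dusp6 (ENSDARG00000070914, chromosome 25, 18326298 to 18330503, minus strand) had no one direction. It had 89.7, 96.3, 74.6 and 69.4 CPM in lesioned 1 to 4, against 97.1, 173.5, 72.4 and 40.8 CPM in unlesioned 1 to 4. The lesioned libraries lay inside the unlesioned range, and the lesioned library was lower at numbers 1 and 2 and higher at numbers 3 and 4. The edgeR estimate was -0.22 on the log2 scale with an SE of 0.38 (adjusted p = 0.904), and it was 0.23 without unlesioned 2.

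Within a library, the balance among the phosphatases can be read without scaling between libraries. Of the summed TPM of the 5 phosphatases, dusp2 made up 10.8%, 9.68%, 4.55% and 4.47% in lesioned 1 to 4, against 18.5%, 20.6%, 4.31% and 17.7% in unlesioned 1 to 4. Unlesioned 3 had the lowest share of all 8 libraries. The ratio of dusp2 to dusp6 separated the groups, with a log2 value of 0.03 to 0.71 in lesioned and 1.095 to 3.42 in unlesioned libraries. Of the 9 ratios of dusp2 to another member, that to dusp6 and that to spred2a separated the groups, and the other 7 did not. How often ratios of other genes separate the groups was not computed. As dusp2 was the member that differed most, this count has no background and nothing is concluded from it. Summed TPM of all 10 members was 1132.7 to 1518.1 in lesioned and 1699.9 to 1925.5 in unlesioned libraries, which did not overlap. The largest parts of that sum were dusp1 and dusp5, and no test was made of it because the genes were chosen with earlier results known. How often sums over other genes separate the groups was not computed either, so this gap has no background.

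**Figure D2:**
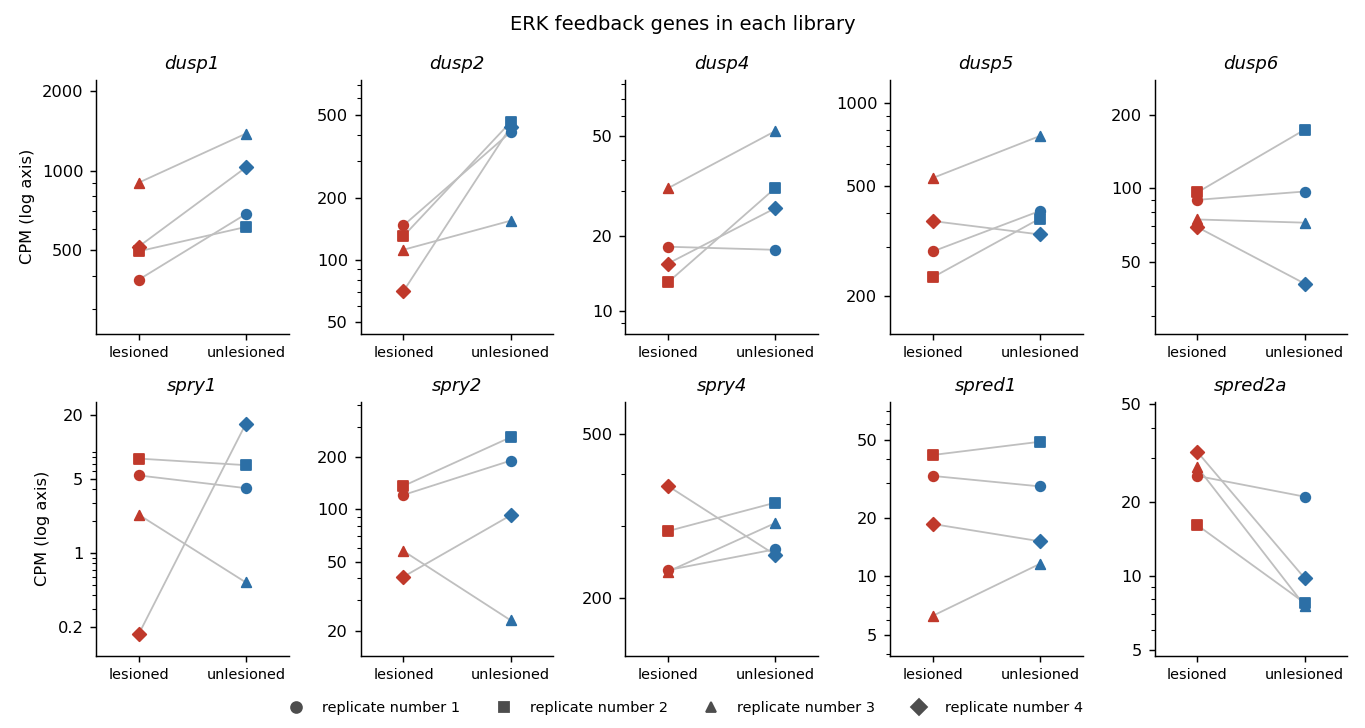
CPM (log axis, a scale per gene) of each ERK feedback gene in the lesioned (red, left) and unlesioned libraries (blue, right), with lines joining libraries of the same replicate number. All lines of dusp1 and dusp2 are higher on the unlesioned side, all lines of spred2a are lower there, and the lines of the other 7 genes run both ways.

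No difference of a Sprouty gene exceeded the spread between libraries. The Fgf-responsive gene spry4 (ENSDARG00000068732, chromosome 21, 44684577 to 44691068, plus strand) was the steadiest member, with 234, 291, 232 and 374 CPM in lesioned 1 to 4, against 263, 341, 304 and 255 CPM in unlesioned 1 to 4. Its log2 difference of -0.04 with an SE of 0.22 (adjusted p = 0.978 by edgeR) was the nearest to 0 of the 10, and its sign turned in 6 of 20 alternative settings. The lesioned library was the lower at 3 of 4 numbers, and the lesioned group held both the lowest and the highest library.

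The other Sprouty genes varied more within groups. The level of spry2 (ENSDARG00000078308, chromosome 1, 5273481 to 5277583, plus strand) was 121, 137, 57.6 and 40.9 CPM in lesioned 1 to 4, against 191, 261, 23.0 and 92.4 CPM in unlesioned 1 to 4. It was lower in lesioned at numbers 1, 2 and 4 and higher at number 3, with a log2 difference of -0.67 with an SE of 0.64 (adjusted p = 0.773 by edgeR). With 1 library left out the estimate ranged from -1.03 without unlesioned 3 to -0.20 without unlesioned 2. The scarce spry1 (ENSDARG00000103985, chromosome 14, 497695 to 498979, minus strand) had 5.41, 7.79, 2.31 and 0.173 CPM in lesioned 1 to 4, against 4.103, 6.76, 0.53 and 16.7 CPM in unlesioned 1 to 4. The lowest values rest on 4 counts in lesioned 4 and 11 counts in unlesioned 3. Its log2 difference of -0.84 with an SE of 1.09 (adjusted p = 0.858 by edgeR) came from number 4, since at the other 3 numbers the lesioned library was the higher, and without unlesioned 4 it was 0.04.

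Of the 10 members, spred2a alone had a positive estimate with TMM scaling. It lies on chromosome 1 from 51444549 to 51474974 on the minus strand (ENSDARG00000052435). It had 25.5, 16.04, 27.6 and 31.9 CPM in lesioned 1 to 4, against 21.0, 7.75, 7.56 and 9.77 CPM in unlesioned 1 to 4. The lesioned library was the higher at all 4 numbers, as for 13.5% of the genes tested, and the groups overlapped only through unlesioned 1, which was above lesioned 2. The edgeR estimate was 1.13 on the log2 scale with an SE of 0.42 (adjusted p = 0.320). It was 0.53 in libraries 1 and 2 alone and 1.84 in libraries 3 and 4 alone, and its adjusted p over the alternative settings ranged from 0.103 in DESeq2 to 0.892 in libraries 3 and 4 alone.

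The related gene spred1 (ENSDARG00000041449, chromosome 17, 52639492 to 52659119, minus strand) showed no such difference. It had 32.7, 41.8, 6.28 and 18.5 CPM in lesioned 1 to 4, against 28.9, 48.9, 11.6 and 15.1 CPM in unlesioned 1 to 4. The lesioned library was higher at numbers 1 and 4 and lower at numbers 2 and 3, and the estimate was -0.07 on the log2 scale with an SE of 0.60 (adjusted p = 0.986 by edgeR). It was 0.09 with library size alone. It shares 1.57% of its exon bases with angel1 and is the only member with any such overlap, and the counting did not use strand. The paralog spred2b, a gene outside the 10, had 10.2 ± 1.501 CPM in lesioned and 6.5 ± 1.32 CPM in unlesioned libraries (SD, n = 4 each), a log2 difference of 0.65 with an SE of 0.39 (adjusted p = 0.593 by edgeR). Its lesioned libraries all lay above the unlesioned ones, as for 5.32% of the genes tested.

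**Figure D3:**
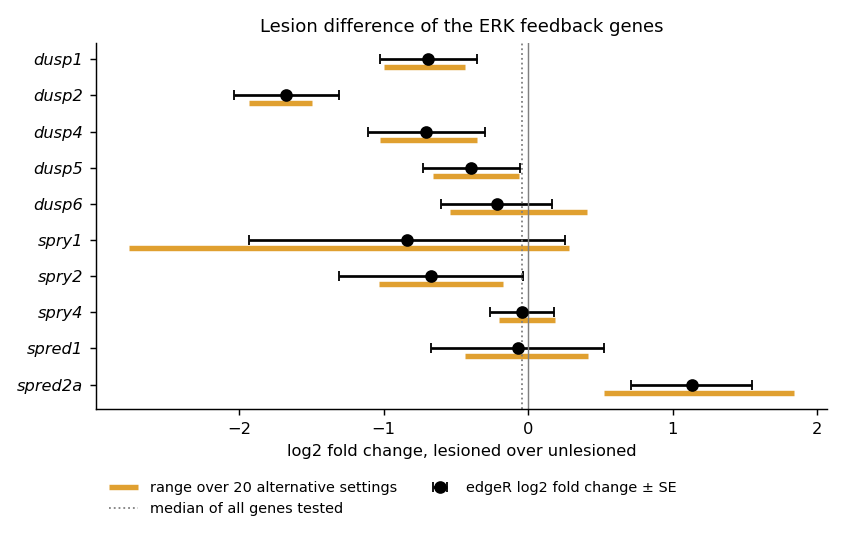
Log2 fold change of lesioned over unlesioned for each ERK feedback gene, with the edgeR estimate ± SE in black and the range over 20 alternative settings in orange. The dotted line marks the median of all genes tested at -0.04; dusp2 at -1.67 and spred2a at 1.13 lie farthest from it in either direction, and the orange bars of dusp6, spry1, spry4 and spred1 cross 0.

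How much of a member's variation followed the replicate number was compared with how much followed the lesion. The sum of squares of log2 CPM over the 8 libraries was split into a part between groups, with 1 degree of freedom, a part between replicate numbers, with 3, and a remainder with 3. The part between numbers was the larger of the first pair for 8 of 10 members and for 73.9% of all genes tested, and it has more degrees of freedom, so this count sets the members apart from other genes in no way. The members' median was 57.7% between numbers and 10.4% between groups, where the medians of all genes were 44.0% and 13.1%.

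The group part was the larger for dusp2 and spred2a. For spry1 and spry4 the remainder was the largest part, at 65.7% and 60.1%. The group part of dusp2 was 68.8%, a share that 4.39% of the genes tested reached, and that of spred2a was 60.4%, which 7.56% reached. At the other end, spred1 had 93.4% between numbers and 0.708% between groups, and 2.37% of the genes tested had as large a part between numbers. The members dusp1 and dusp5 had 59.0% and 73.5% between numbers, with 36.0% and 15.4% between groups.

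**Figure D4:**
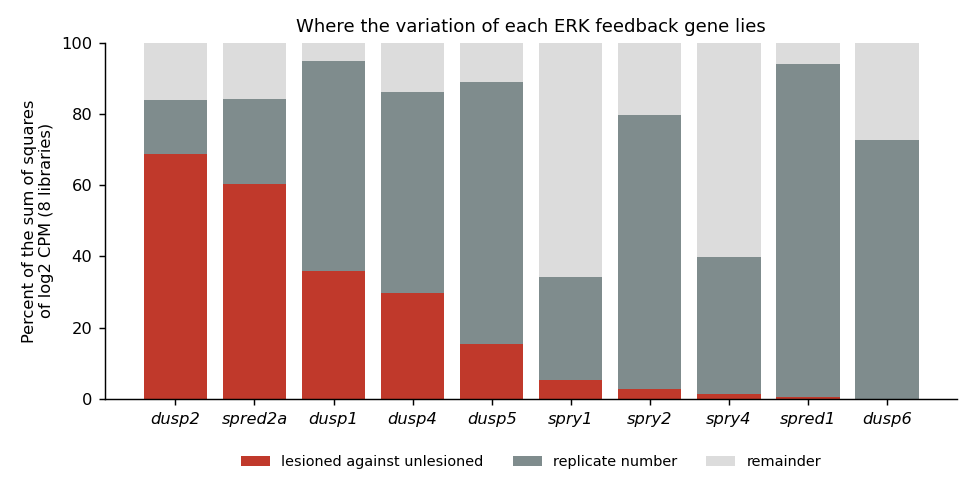
Percent of the sum of squares of log2 CPM over 8 libraries that lies between lesioned and unlesioned (red), between replicate numbers (dark grey) and in the remainder (light grey), for each ERK feedback gene. The red part is 68.8% for dusp2 and 60.4% for spred2a, and below 1% for dusp6 and spred1.

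The members fell on different sides of the library numbers. Levels of spry2, spred1 and dusp6 in libraries 3 and 4 of both groups were all below those in libraries 1 and 2, as was so for 5.56% of the genes tested, and no member was above in both, as 3.56% were. The values were 23.0 to 92.4 against 121 to 261 CPM for spry2, 6.28 to 18.5 against 28.9 to 48.9 CPM for spred1, and 40.8 to 74.6 against 89.7 to 173.5 CPM for dusp6. For dusp1, dusp4 and dusp5 the mean was instead higher in libraries 3 and 4, by 0.76, 0.58 and 0.57 on the log2 scale, with overlapping ranges. The log2 difference of libraries 3 and 4 from 1 and 2 was -2.09 for the scarce spry1 and -0.69 for dusp2, also with overlapping ranges. It was 0.035 for spry4 and -0.007 for spred2a. The mitochondrial share and the epidermal markers given above moved with the same numbers, and their part in these levels was not tested.

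Distances between the members' profiles followed this grouping only in part. Each profile of log2 CPM over the 8 libraries was centred on its own mean, and the root mean square distance was taken for all 45 pairs. The closest pairs were dusp4 with dusp5 at 0.33, dusp1 with dusp5 at 0.36 and dusp1 with dusp4 at 0.37. The distances among spry2, spred1 and dusp6 were larger, at 0.72 to 0.90, and dusp6 was nearer to spry4, at 0.53. Profiles were not scaled, so a distance depends on how much each gene varied as well as on the shape of its profile. The SD of log2 CPM over the 8 libraries was 0.25 for spry4 and 0.59 for dusp6, against 1.00 for spred1 and 1.17 for spry2. The larger distances therefore do not show that spry2, spred1 and dusp6 differ in shape. The 8 libraries of a pair are shared, so these distances also hold each library's own deviations. The genes outside the 10 nearest to the mean profile of the members, among 8053 with a mean of at least 10 CPM, were sntb2, rab18a, wls, syf2 and dhrs4, at distances of 0.10 to 0.14. Their log2 fold changes lay between -0.41 for sntb2 and -0.23 for syf2, with adjusted p of 0.544 or more in edgeR.

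Upstream of the feedback genes, most FGF ligand genes were scarce. Of 28 FGF ligand and FGF-binding protein genes listed, 14 passed the filter on low counts. Of these, 11 had a negative log2 fold change, where 52.3% of all genes tested did. The median of the 14 was -0.36, and 0 were called in edgeR. Here and for the lists below, edgeR called 0.019% of all genes tested higher and 0.0% lower, so 0 calls in a list says little. The most abundant was fgf10a, a mesenchymal FGF, with 38.6 ± 18.0 CPM in lesioned and 47.8 ± 16.97 CPM in unlesioned libraries (SD, n = 4 each). The lowest p-values belonged to fgf21, fgf16 and fgf22, with 2.71, 5.28 and 0.598 CPM in lesioned and 16.2, 12.7 and 2.24 CPM in unlesioned libraries, and adjusted p of 0.549, 0.550 and 0.630 in edgeR. None of the 14 had an unadjusted p under 0.05 in edgeR. DESeq2 called 0, but it gave no adjusted p for fgf21, fgf16 and fgf22 and so could not call them.

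All 9 tested genes of the list of FGF receptors and their adaptors had a lower estimate in lesioned libraries, where 52.3% of all genes tested did. The log2 fold changes of the 9 ran from -1.09 to -0.004, so the least of them was next to no difference. Their median was -0.53, but 0 were called in edgeR. With library size alone as scaling 7 of the 9 were lower, where 6802 of the 15759 genes tested were. With TMM scaling 2 had an unadjusted p under 0.05 in edgeR, both lower, where 5.48% of all genes tested were. These were fgfrl1a and fgfrl1b, which encode FGF-binding receptors without a kinase domain. DESeq2 called 1 lower, fgfrl1a, where 3.0% of the genes with an adjusted p were. All lesioned libraries lay below all unlesioned ones for 1 of the 9, again fgfrl1a, where 3.91% of all genes tested did so. The level of fgfrl1a was 94.9 ± 23.9 CPM in lesioned and 170.5 ± 20.8 CPM in unlesioned libraries, which did not overlap, with a log2 difference of -0.84 with an SE of 0.24 (adjusted p = 0.216 by edgeR and 0.0361 by DESeq2). That of fgfrl1b was 72.3 ± 32.1 CPM in lesioned and 154 ± 57.5 CPM in unlesioned libraries, a log2 difference of -1.09 with an SE of 0.39 (adjusted p = 0.309 by edgeR). Of the kinase receptors, the most abundant, fgfr2, had 125.5 ± 19.4 CPM in lesioned and 156 ± 36.5 CPM in unlesioned libraries (adjusted p = 0.683 in edgeR), and fgfr1b had 21.97 CPM in lesioned and 32.1 CPM in unlesioned libraries (adjusted p = 0.653 in edgeR).

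In the cascade from Ras to ERK, 16 of 28 tested genes had a negative log2 fold change, where 52.3% of all genes tested did, with a median of -0.24, and 0 were called in edgeR. At an unadjusted p under 0.05 in edgeR 4 were lower and 0 higher, where 5.48% and 6.07% of all genes tested were. Of the 28, 3 had all lesioned libraries below all unlesioned ones and 1 had all above, where 3.91% and 5.32% of all genes tested did. DESeq2 called 1 lower, where 3.0% of the genes with an adjusted p were. That gene was rras, which encodes a GTPase related to Ras, with 111 ± 8.95 CPM in lesioned and 185 ± 17.2 CPM in unlesioned libraries, groups that did not overlap. Its log2 difference was -0.74 with an SE of 0.18 (adjusted p = 0.172 by edgeR and 0.00718 by DESeq2). The Ras gene hrasa had 6.65 and 14.8 CPM in lesioned and unlesioned libraries, and the Raf kinase gene raf1b 10.4 and 20.4 CPM (adjusted p = 0.346 and 0.355 in edgeR). With TMM scaling the groups of both genes also did not overlap, but only narrowly. For hrasa the highest lesioned library had 12.16 CPM and the lowest unlesioned one 12.17 CPM. For raf1b these were 13.96 and 14.83 CPM.

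Other inhibitors of the pathway went both ways. Of 11 further feedback inhibitors tested, 5 had a negative and 6 a positive log2 fold change, the median was 0.03, and 0 were called in edgeR. At an unadjusted p under 0.05 in edgeR 1 was lower and 1 higher, where 5.48% and 6.07% of all genes tested were. All lesioned libraries lay below all unlesioned ones for 1 and above for 1, where 3.91% and 5.32% of all genes tested did so. DESeq2 called 1 lower and 0 higher, where 3.0% and 3.4% of the genes with an adjusted p were. The most abundant of the 11, errfi1a, encodes an inhibitor of the EGF receptor. It had 304 ± 119 CPM in lesioned and 682 ± 63.7 CPM in unlesioned libraries, groups that did not overlap, with a log2 difference of -1.17 with an SE of 0.32 (adjusted p = 0.211 by edgeR and 0.0217 by DESeq2). The neurofibromin gene nf1b was scarce, with 3.32 ± 2.43 CPM in lesioned and 0.337 ± 0.509 CPM in unlesioned libraries, and an adjusted p of 0.407 in edgeR. DESeq2 gave no adjusted p for nf1b or spred2b. Of 5 further MAP kinase phosphatases and relatives tested, 4 had a negative log2 fold change, where 52.3% of all genes tested did, and the median was -0.81. With library size alone as scaling 3 were negative, where 6802 of the 15759 genes tested were, and the median was -0.69. Of the 5, 0 were called in edgeR, 0 had an unadjusted p under 0.05 in edgeR and DESeq2 called 0. Among them dusp8a had 25.4 and 54.1 CPM, dusp16 9.97 and 17.5 CPM, styx, a pseudophosphatase, 24.1 and 16.4 CPM, and dusp7 80.4 and 81.5 CPM in lesioned and unlesioned libraries (adjusted p of 0.436 or more in edgeR).

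Downstream, 15 of 17 tested transcription factors and other genes known as ERK targets or effectors had a negative log2 fold change, where 52.3% of all genes tested did. Their median was -0.48, and 0 of the 17 were called in edgeR. At an unadjusted p under 0.05 in edgeR 4 were lower and 0 higher, where 5.48% and 6.07% of all genes tested were. All lesioned libraries lay below all unlesioned ones for 4, as for 3.91% of all genes tested. DESeq2 called 1 lower, where 3.0% of the genes with an adjusted p were. That gene was the Myc gene mycb, with 164 ± 42.6 CPM in lesioned and 348 ± 123 CPM in unlesioned libraries, a log2 difference of -1.09 with an SE of 0.29 (adjusted p = 0.197 by edgeR and 0.0265 by DESeq2). The ETS factor gene elk3 had 60.5 ± 8.14 CPM in lesioned and 107 ± 31.0 CPM in unlesioned libraries (adjusted p = 0.229 in edgeR). Another ETS factor and Fgf target, etv5b, had 139 ± 21.3 CPM in lesioned and 200.5 ± 40.9 CPM in unlesioned libraries (adjusted p = 0.384 in edgeR). The most abundant, fosl1a, an AP-1 factor gene, had 1258.6 CPM in lesioned and 1966.9 CPM in unlesioned libraries (adjusted p = 0.490 in edgeR).

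Estimates of immediate early genes were mostly lower in lesioned libraries, as those of dusp1 and dusp2 were. Of 30 tested, 28 had a negative log2 fold change, where 52.3% of all genes tested did, with a median of -0.88, and 0 were called in edgeR. At an unadjusted p under 0.05 in edgeR 9 were lower and 0 higher, where 5.48% and 6.07% of all genes tested were. DESeq2 called 4 lower, where 3.0% of the genes with an adjusted p were. The AP-1 factor gene fosab had 2822.6 ± 1053.3 CPM in lesioned and 7319.2 ± 2077.1 CPM in unlesioned libraries (adjusted p = 0.162 in edgeR), and 26.8% of its exon bases are shared with another gene. The zinc finger factor gene egr1 had 536 ± 134.5 CPM in lesioned and 1029 ± 84.3 CPM in unlesioned libraries (adjusted p = 0.165 in edgeR), and the nuclear receptor gene nr4a3 had 34.5 ± 10.9 CPM in lesioned and 83.9 ± 30.5 CPM in unlesioned libraries (adjusted p = 0.197 in edgeR). Of 15 heat shock genes, 12 had a negative log2 fold change and the median was -0.90. DESeq2 called 0 of them lower and 1 higher, hspd1, where 3.0% and 3.4% of the genes with an adjusted p were. This mitochondrial chaperonin gene had 270.4 and 121 CPM, and hspa4b had 100.1 and 46.0 CPM, in lesioned and unlesioned libraries. The co-chaperone gene dnajb1a had 27.2 CPM in lesioned and 48.1 CPM in unlesioned libraries, and the most abundant, hspa8, had 9698.8 CPM in lesioned and 9450.2 CPM in unlesioned libraries. The genes nr4a3, fosl1a, rgs5a, col1a1a and hspa8 also share 3.07% to 9.25% of their exon bases with another gene. Genes of both lists are known to respond to tissue dissociation, and their part in the levels of dusp1 and dusp2 was not tested.

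Of the markers of the labelled cell types, 0 were called in edgeR, with 5 mural markers lower at an unadjusted p under 0.05 in edgeR and 3 fibroblast or tendon-like ones lower and 1 higher. Of all genes tested, 5.48% were lower and 6.07% higher at that limit. Of 10 mural markers, 9 were negative, where 52.3% of all genes tested were, and their median was -0.97. DESeq2 called 3 of them lower, where 3.0% of the genes with an adjusted p were. The level of rgs5a was 221 ± 54.6 CPM in lesioned and 503 ± 222 CPM in unlesioned libraries, and that of acta2 3622.7 ± 1131.3 CPM in lesioned and 9028.2 ± 4233.8 CPM in unlesioned libraries. Of 13 fibroblast and tendon-like markers, 8 were negative and 5 positive, and the median was -0.20, or -0.016 with library size alone. DESeq2 called 1 lower, tnmd, with 187 ± 69.8 CPM in lesioned and 642 ± 403.5 CPM in unlesioned libraries. The level of col1a1a was 6567.8 CPM in lesioned and 5400.7 CPM in unlesioned libraries. The 1 marker higher at that unadjusted limit was scxa, with 56.5 ± 17.95 CPM in lesioned and 32.2 ± 8.21 CPM in unlesioned libraries (adjusted p = 0.317 in edgeR). Its lesioned libraries all lay above the unlesioned ones, as for 5.32% of the genes tested. In unlesioned 3, a library picked out after its values were seen, dusp2 was low and the mural markers summed to 6192.2 CPM, the least of the unlesioned libraries. Lesioned 1 had a higher mural sum, 8169.4 CPM, with dusp2 at 146.7 CPM against 154.6 CPM in unlesioned 3. The part of the mural markers in the level of dusp2 was not tested. Muscle markers summed to 385.6 to 3685.3 CPM in lesioned and 646.3 to 1632.6 CPM in unlesioned libraries, and leukocyte markers to 3.83 to 74.5 CPM in lesioned and 1.78 to 87.8 CPM in unlesioned libraries. Endothelial markers, with lyve1b at 0, summed to 61.2 to 99.2 CPM in lesioned and 52.6 to 107.8 CPM in unlesioned libraries, and neuronal markers to 42.6 to 107.3 CPM in lesioned and 52.8 to 74.8 CPM in unlesioned libraries. Glial markers summed to 6.73 to 29.6 CPM in lesioned and 13.0 to 208.5 CPM in unlesioned libraries, and erythroid markers to 6.74 to 7.21 CPM in lesioned and 7.45 to 17.6 CPM in unlesioned libraries. Their part in the members' levels was not tested.

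**Figure D5:**
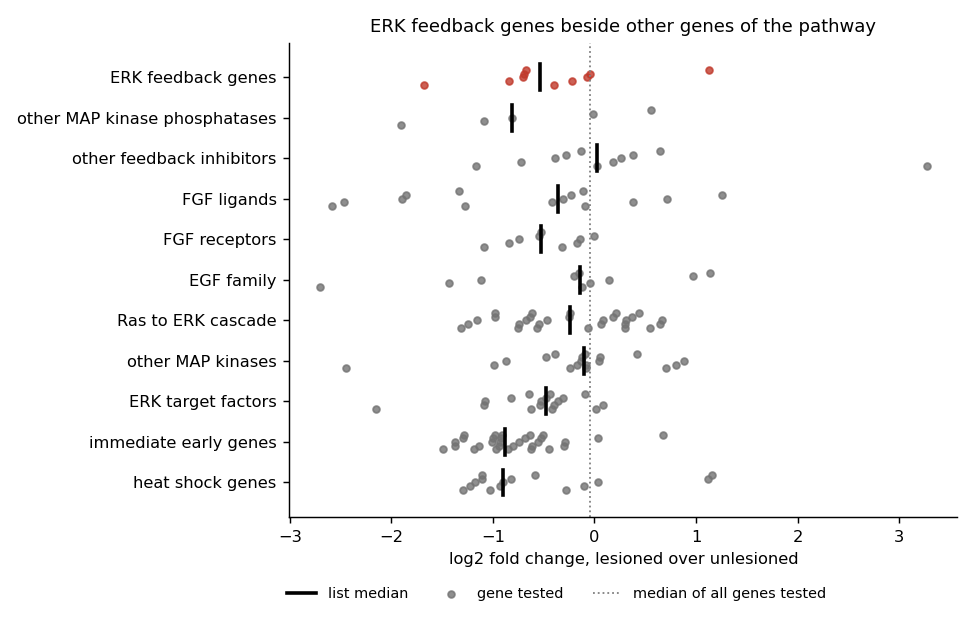
Log2 fold change of lesioned over unlesioned for each tested gene (points) of the ERK feedback genes (red) and of 10 further lists (grey), with the list median as a black bar and the median of all genes tested as a dotted line. The ERK feedback genes have a median of -0.53, the FGF receptors of -0.53 too and the immediate early genes of -0.88.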

How the data were processed

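Raw read counts per gene were deposited by the authors, with no normalization. Per the submitters' processing notes, bcl2fastq 2.19.1, GSNAP and featureCounts 1.6.2 were used on GRCz11. Per the file headers, featureCounts 1.6.3 counted with Ensembl 92 and without regard to strand, keeping reads of mapping quality 1 or more, so reads of antisense or overlapping genes cannot be told apart. The 92 spike-in entries were left out of the gene counts and of all fits. The table gives identifiers only. Symbols of 29178 identifiers were found, of which 10994 came from capital-letter symbols assigned by chromosome and at least 2 shared neighbours among 15 genes on each side. Each member placed this way shared 15 or more.

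The comparison of lesioned over unlesioned used edgeR 4.0.16 in R 4.3.3, with low counts removed by filterByExpr, TMM scaling and the robust quasi-likelihood F-test over 15759 genes, called at an adjusted p under 0.05. The common biological coefficient of variation was 74.9%, so the spread between libraries limits precision more than depth does. TPM were computed from counts and exon length. Profiles used log2 CPM with a prior count of 2. Alternatives used DESeq2 1.42.0, limma 3.58.1, other scalings, filters and designs, and left-out libraries. Same-numbered libraries of the groups correlated in their deviations from the group means at 0.192, 0.182, 0.232 and 0.154, each over 0.1, so by that limit the numbers were taken to pair the samples, although the labels give only the numbers. The main edgeR test did not use this pairing, and the fit with the replicate number as a block is among the alternatives. Libraries 1 and 2 are not told apart as pairs, since lesioned 1 with unlesioned 2 gave 0.199 and lesioned 2 with unlesioned 1 gave 0.182.

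The members and lists were chosen with earlier results of these data known, so no test was made over a list. Named genes are the members, pdgfrb, from each pathway list the 3 genes with the lowest p and the most abundant one, from each marker list the lowest p and the most abundant one, and the 5 nearest profiles. The marker scxa was named after its values were seen. Markers of cell types outside the label are given only by their summed CPM of the library total, without TMM factors. The design holds 4 libraries per group.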

Additional observations from a re-analysis of the deposited data

Results flagged for a closer look

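In 3 of 20 groups of 4 libraries tested (each member in each group), 1 library stood apart from the other 3 by Dixon's test at the 95% level, which chance flags in about 1 of 20 groups. The level of dusp2 in unlesioned 3 was 154.6 CPM, where the next lowest unlesioned library had 413 CPM. Without unlesioned 3 its log2 fold change was -1.93 (adjusted p = 0.0757 in edgeR). The level of dusp5 in unlesioned 3 was 759.2 CPM, where the next highest had 406 CPM, and without that library its log2 fold change was -0.07. The level of spred2a in unlesioned 1 was 20.97 CPM, where the next highest had 9.77 CPM.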

How the results depend on the processing

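Of the members, dusp1, dusp2, dusp4, dusp5 and spry2 kept a negative and spred2a a positive log2 fold change in all 20 alternatives. The estimates of dusp6, spry1, spry4 and spred1 turned positive in some. In libraries 3 and 4 alone dusp6 was 0.41 and spry4 0.19, and in libraries 1 and 2 alone spry1 was 0.28. With library size alone spry4 was 0.14 and spred1 0.091, and with no filter spry4 was 0.0047. With 1 library left out, the range was -0.47 to 0.23 for dusp6, -1.41 to 0.043 for spry1, -0.20 to 0.053 for spry4 and -0.43 to 0.42 for spred1. Outside the members, pdgfrb was 0.010 with library size alone, 0.020 in libraries 3 and 4 alone and -0.36 to 0.062 with 1 library left out, and dusp7 was 0.11 with library size alone, 0.0029 with no filter, 0.059 in libraries 1 and 2 alone and -0.44 to 0.35 with 1 library left out. In libraries 3 and 4 alone fgfr2 was 0.042 and syf2 0.00045, and hspa8 ranged from -0.061 to 0.17 with 1 library left out. Among members that kept their sign, the range with 1 library left out was -1.03 to -0.36 for dusp4, -0.66 to -0.066 for dusp5 and 0.97 to 1.61 for spred2a, and with the replicate block spry2 was -0.40. The cause was not tested.

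The number of genes called, 3 in edgeR, was 517 in DESeq2, 61 in limma voom with sample quality weights, 14 with libraries 1 and 2 against 3 and 4 as a term, 6 with no filter, 6 with libraries 1 and 2 alone, 0 from libraries 3 and 4 alone, and 3 to 8 with 1 library left out, the highest without unlesioned 3. Members called lower numbered 1 in DESeq2 and 1 with the quality weights. The members' median of -0.53 was -0.37 in limma voom, -0.29 with the replicate block, -0.19 in libraries 3 and 4 alone and -0.58 to -0.34 with 1 library left out. The replicate block changed no call of a member. With library size alone, 0 members had all lesioned libraries below all unlesioned ones, where 2.28% of all genes tested did so. Such members numbered 5 in libraries 1 and 2, where 22.5% of all genes tested did so. They numbered 2 in libraries 3 and 4, where 17.2% did, and 1 to 2 with 1 library left out, where 4.86% to 6.94% did. Those with all above numbered 2 in libraries 3 and 4, where 20.1% did, and 0 to 1 with 1 left out, where 6.26% to 8.5% did.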

Other observations

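Other branches that feed or run beside ERK also had no called gene. As edgeR called 0.019% of all genes tested higher and 0.0% lower, this says little about these branches. Of 10 tested genes of the EGF family, 7 had a negative log2 fold change, where 52.3% of all genes tested did, and the median was -0.14. With library size alone as scaling 4 were negative, where 6802 of the 15759 genes tested were, and the median was 0.022. Of the 10, 0 were called in edgeR and 0 in DESeq2, which gave no adjusted p for hbegfb. At an unadjusted p under 0.05 in edgeR 1 was lower, where 5.48% of all genes tested were. The neuregulin gene nrg1, an ERBB receptor ligand, had 20.2 ± 9.10 CPM in lesioned and 54.7 ± 34.1 CPM in unlesioned libraries (SD, n = 4 each), and its log2 difference was -1.44 with an SE of 0.55 (adjusted p = 0.338 by edgeR). The ligand genes hbegfb, btc and hbegfa had 1.09, 11.3 and 98.2 CPM in lesioned and 7.13, 24.7 and 113 CPM in unlesioned libraries. The mean of hbegfb rests on unlesioned 3 with 22.6 CPM, and that of btc on unlesioned 4 with 54.0 CPM. Without that library the log2 fold change of hbegfb was -0.85, against -2.71 with it, and that of btc was -0.40, against -1.12.

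Among 18 tested kinases of the JNK, p38 and ERK5 branches, 12 had a negative log2 fold change, where 52.3% of all genes tested did, and the median was -0.11. With library size alone 8 were negative, where 6802 of the 15759 genes tested were, and the median was 0.05. In edgeR 0 were called and 0 had an unadjusted p under 0.05, and DESeq2 called 0 but gave no adjusted p for mapk10. The JNK gene mapk10 had 0.994 ± 0.929 CPM in lesioned and 5.44 ± 2.81 CPM in unlesioned libraries, the ERK5 kinase gene map2k5 had 17.1 ± 6.83 CPM in lesioned and 10.45 ± 3.94 CPM in unlesioned libraries, and mapkapk2a, a kinase downstream of p38, had 157 ± 41.1 CPM in lesioned and 206 ± 42.1 CPM in unlesioned libraries (adjusted p of 0.465 or more in edgeR).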
